A study of Mus musculus with 14 samples.

Results

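RNA from 6 mouse embryonic stem (ES) cell lines of the BC cross was compared, 3 XX lines (BC XX 1 to 3) against 3 XY lines (BC XY 1 to 3), out of the 14 lines that were sequenced. BC lines have a C57BL/6J mother and a CAST/EiJ father, so that an XX line holds an X chromosome of each strain and an XY line holds the C57BL/6J X and the CAST/EiJ Y. Each line was raised from a single blastocyst, so the lines of a group are separate embryos of the same cross. All lines were kept undifferentiated with the cytokine LIF on a feeder layer of inactivated embryonic mouse fibroblasts, and fibroblasts were removed in 2 consecutive steps before RNA was isolated. The other lines serve here for side-by-side values only, namely 2 BC XO lines of the same cross and the 6 lines of the reciprocal CB cross (CAST/EiJ mother, C57BL/6J father), 3 of them XX and 3 labelled XY. A gene entered the comparison when its deposited value, a read signal per gene scaled to a common depth, was 10 or more in at least 3 of the 6 BC lines. This held for 15432 of 23298 genes, of which 15423 were tested. The remaining 9 genes, among them the chaperone genes *Hsp90aa1* and *Hspa8*, are listed at 0 in all 3 XX lines while the XY lines reach 100 or more, and since several of them are used by every cell they were left out.

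In undifferentiated female ES cells both X chromosomes are active, because random X inactivation, which the noncoding RNA *Xist* carries out, starts only on differentiation. XX ES cells are known for a higher dose of X-linked transcripts, for dampened FGF-ERK signalling and for low DNA methylation, and the X-linked phosphatase *Dusp9* and the de novo methyltransferases *Dnmt3a*, *Dnmt3b* and their cofactor *Dnmt3l* are part of that picture. Genes whose promoters are silenced by DNA methylation in most cells, such as meiotic genes, can be transcribed when methylation is low.

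The values of the 6 lines summed to between 28150946 and 30122093, and with the smallest step between values read as 1 read, depth ran from 24117720 reads in BC XY 1 to 69646259 reads in BC XX 2. Of the 10 ES cell markers all were tested and none was called (median log2 fold change −0.26, 8 negative). That median was −0.44 without BC XX 1 and −0.07 without BC XX 3, and 0.31 with the level of the fibroblast genes below as a covariate. *Pou5f1*, the core pluripotency factor, had 26655, 22607 and 17312 in the XY lines and 24861, 20412 and 10829.8 in the XX lines. The mean log2(value + 5) of 30 fibroblast genes was 9.54, 8.95 and 8.65 in XY 1, 2 and 3 and 10.7, 11.4 and 11.9 in XX 1, 2 and 3, while both BC XO lines had 9.52 and the CB lines lay between 8.60 and 10.1. The XX lines thus stood above all other lines, in the order 1, 2, 3, and the XY lines ran in the order 3, 2, 1. In these bulk samples, more fibroblasts in a culture and more fibroblast-type RNA per cell cannot be told apart, and since the level of the list does not overlap between the groups, neither can the sex chromosome complement and that level. Of 10 macrophage and blood markers 5 were tested and none was called, the other 5 being under 13 in every line. Of 9 endothelial genes tested 1 was called. Labelled XY, CB lines 2 and 3 hold little Y-linked RNA, with 1149, 19.6 and 45.4 for *Uty*, a Y-linked gene, in CB XY 1, 2 and 3.

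**Figure D1:**
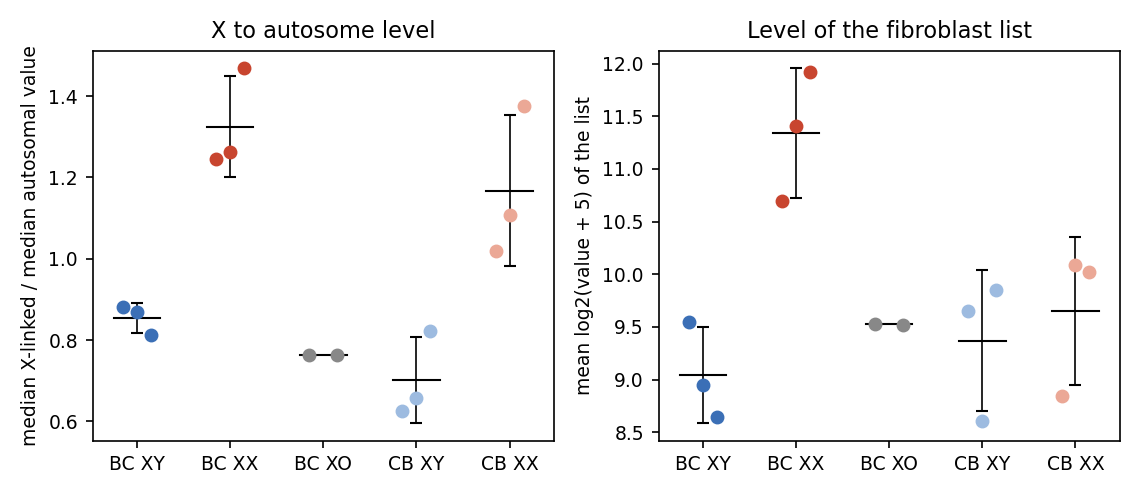
X to autosome level (left, median value of the X-linked genes over that of the autosomal genes, no unit) and mean log2(value + 5) of 30 fibroblast genes (right), with 1 point per line for the 5 groups; horizontal bars are group means and whiskers the SD over 3 lines. The BC XX lines lie at 1.25 to 1.47 on the left against 0.812 to 0.882 in the BC XY lines, and at 10.7 to 11.9 on the right against 8.65 to 9.54.

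Y-linked RNA and *Xist* were examined first as a check of the labels. *Uty*, a Y-linked relative of the histone demethylase *Kdm6a*, had values of 2088, 1529 and 945 in the XY lines and 66.1, 89.6 and 195 in the XX lines (log2 fold change −3.72, standard error 0.42, limma adjusted p = 0.00533). *Zfy2*, a Y-linked zinc finger gene, had 15, 21.6 and 48.9 in the XY lines and was listed at 0 in every XX line, at least 14.4-fold lower when 3 reads per line are taken as the floor. The XX lines were not free of Y-linked RNA. The RNA helicase gene *Ddx3y* had 2268, 1397 and 1115 in the XY lines and 328, 486 and 1024 in the XX lines (log2 fold change −1.47, standard error 0.41, limma adjusted p = 0.0874), lowest in XX 1 and highest in XX 3 as is the fibroblast level. *Eif2s3y*, a translation factor gene, overlapped between the groups (255, 195 and 40.8 against 102, 173 and 317), and *Kdm5d*, a Y-linked histone demethylase, was higher in every XX line (28.7, 6.65 and 6.02 against 36.9, 62.3 and 123, log2 fold change 2.13, standard error 0.53, limma adjusted p = 0.064). Whether this Y-linked RNA comes with the fibroblast RNA was not tested. *Xist* (chromosome X, 100655714 to 100678556 of mm9) had 1343, 841 and 801 in the XY lines and 3875, 4374 and 4058 in the XX lines (log2 fold change 2.08, standard error 0.22, limma adjusted p = 0.00421), against 1219 and 1650.4 in the XO lines.

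By limma, 629 of 15423 genes (4.08%) passed an FDR of 0.05 between the groups, after Benjamini-Hochberg adjustment over all genes tested. Higher in XX lines were 542 genes (3.51%) and lower were 87 (0.564%), and 73 genes (0.473%) passed an FDR of 0.01. Log2 fold changes were positive for 45.9% of all genes tested. An adjusted p is from this fit unless another is named, on log2(value + 5), a scale that understates the change of genes with low values. A gene below 10 in every line of 1 group was tested only if every line of the other reached 10, so its direction was fixed. Values of a gene are given for XY 1, 2 and 3 against XX 1, 2 and 3. The counts rested on particular lines. Without BC XY 2 there were 47 genes higher and 3 lower in XX lines, without BC XY 3 277 and 28, without BC XX 2 73 and 5, and without BC XX 3 161 and 16, whereas without BC XY 1 the counts were 620 and 173 and without BC XX 1 583 and 83. Of 84 called genes that are named here, 29 kept their call without any 1 line. With the fibroblast level as a covariate limma called 0 genes, with 932 genes higher and 510 lower at an unadjusted p of 0.05. The covariate does not overlap between the groups, so the group difference in this fit, and any list median from it, is an extrapolation.

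X-linked genes made up the clearest part of the difference. Of 571 X-linked genes tested, 98 were higher in XX lines (17.2%) and none was lower (9 were lower at an unadjusted p of 0.05), against 444 higher (2.99%) and 85 lower (0.573%) of 14830 autosomal genes, 3.57% in all. All 3 XX lines lay above all 3 XY lines for 299 X-linked genes (52.4%), and below them for 9 (1.58%). Over all genes these shares were 14.7% and 12.6%, or 27.3% in all. The median log2 fold change of X-linked genes was 0.54, a fold of 1.46, with quartiles of 0.27 and 0.87, and 509 of 571 (89.1%) were positive. The autosomal median was −0.06. The number of X-linked calls fell to 16 without BC XY 2, 18 without BC XX 2, 42 without BC XX 3 and 47 without BC XY 3, but the median stayed between 0.51 and 0.57 in the 6 fits without 1 line.

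The ratio of the median X-linked to the median autosomal value, which compares lines and not genes, was 0.882, 0.869 and 0.812 in the XY lines and 1.25, 1.26 and 1.47 in the XX lines. The groups did not overlap. The means were 1.32 ± 0.124 (SD, n = 3) and 0.854 ± 0.0372 (SD, n = 3), a ratio of 1.55 (exact permutation test, two-sided, p = 0.1, the smallest p that 3 against 3 lines allow). The XO lines, with a single X chromosome and no Y, had 0.763 and 0.763. In both groups this ratio rose in the order of the fibroblast level, XX 1, 2, 3 and XY 3, 2, 1. Line by line, the median X-linked log2 difference from the XY mean was 0.60, 0.53 and 0.56 in XX 1, 2 and 3, another order. It was 0.04, −0.03 and −0.05 in XY 1, 2 and 3, in the order of the fibroblast level. The part of the fibroblast level in either measure was not tested.

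The size of the difference varied among X-linked genes. Point estimates lay between −0.25 and 0.25 for 102 genes, between 0.25 and 0.75 for 253, between 0.75 and 1.25 for 128, and above 1.25 for 62, where a log2 fold change of 1 corresponds to the gene dose. Of the 98 called genes 46 belonged to the class above 1.25, 46 to that between 0.75 and 1.25, and 6 to that between 0.25 and 0.75. With 3 lines per group the 95% intervals were wide. They held a doubling but not equality for 209 genes, equality but not a doubling for 178, and both for 98. For 45 genes the interval lay between equality and a doubling, for 32 above a doubling and for 9 below equality. The X-linked genes that were lower in every XX line included *Arhgap36*, *Cited1*, *Gpc3* and *4933402E13Rik* (named after their values were seen). No X-linked gene was called lower. *Gpc3*, a glypican, had 4179, 4184 and 6248 in XY and 3746, 3444 and 3486 in XX lines (log2 fold change −0.43, standard error 0.19, limma adjusted p = 0.241).

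**Figure D2:**
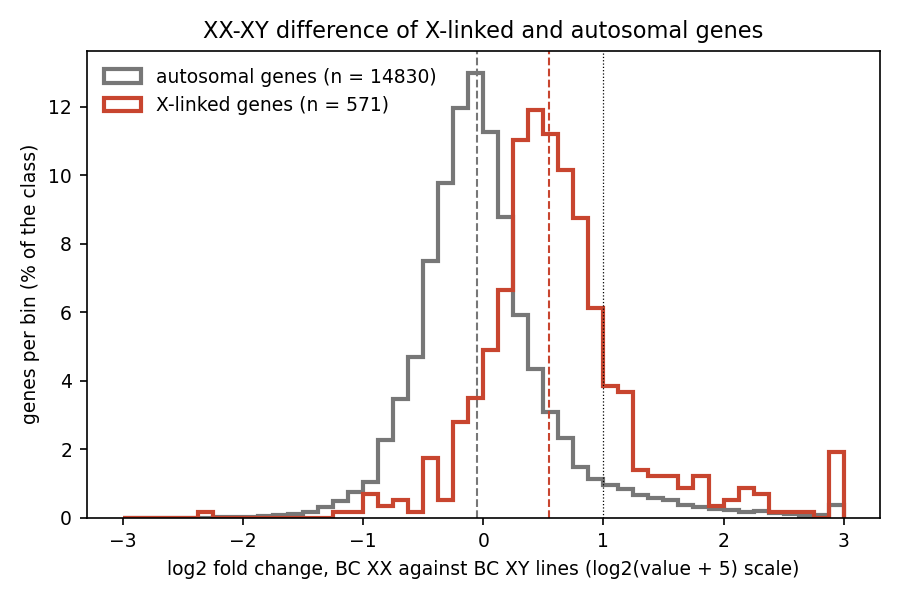
Share of genes per bin of log2 fold change (XX against XY lines, bins of 0.125, values beyond −3 and 3 placed in the outer bins) for 571 X-linked and 14830 autosomal genes. Dashed lines mark the medians of 0.54 and −0.06, and the dotted line marks a log2 fold change of 1. The X-linked distribution is moved to higher values as a whole, with a tail above 1.25.

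At the X inactivation centre, the region that controls *Xist*, 8 genes were tested, 2 were higher in XX lines and 7 had positive log2 fold changes. Beside *Xist* this was *Chic1*, a neighbour of *Xist*, at 1203, 957 and 736 in XY and 1833, 1930.4 and 1985 in XX lines (log2 fold change 1.01, standard error 0.20, limma adjusted p = 0.0324). *Tsix*, the antisense transcript of *Xist*, had 184, 116 and 99.7 against 193, 209 and 231 (log2 fold change 0.69, standard error 0.28, limma adjusted p = 0.209), without overlap of the lines. Of 14 genes that are known to escape X inactivation, 3 were higher (*Xist*, *Bgn* and *Shroom4*) and 13 were positive, with a median of 0.54 that equals the median of all X-linked genes. Of the 10 X-linked genes with a Y-linked partner all were positive, with a median of 0.39, and 1 was called. This was *Usp9x*, a deubiquitinase, with 38464, 31987 and 32646 in XY and 68831, 62239 and 67771 in XX lines (log2 fold change 0.95, standard error 0.15, limma adjusted p = 0.0155), which missed the threshold without BC XY 2 (limma adjusted p = 0.0999) and without BC XX 2 (0.0729). *Kdm6a*, the X-linked partner of *Uty*, had 3846, 3749 and 4025 against 5944, 5235 and 5379 (log2 fold change 0.51, standard error 0.14, limma adjusted p = 0.0825). The lines did not overlap, but the gene was not called.

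The largest X-linked differences belonged to the *Xlr* family, clustered genes of germ cells and lymphocytes that occur in near-identical copies. All 9 *Xlr* genes tested were higher in XX lines and none overlapped between the groups (median log2 fold change 2.92, or 4.36 with a pseudocount of 1 and 1.71 with one of 20). All 9 were below 10 in every XY line, so each was tested only because all 3 XX lines reached 10 or more. Their direction and lack of overlap were thus fixed by the filter. Over all genes tested, every XX line lay above every XY line for 14.7%. Between 7 and 9 of them kept the call when 1 line was left out. *Xlr3a* (chromosome X, 70331632 to 70342434 of mm9) had values of 2.5, 9.98 and 6.02 in the XY lines and 742, 345 and 528 in the XX lines (log2 fold change 5.59, standard error 0.37, limma adjusted p = 0.00104). *Xlr3c* had 8.74, 7.48 and 7.36 against 336, 171 and 255 (log2 fold change 4.28, standard error 0.30, limma adjusted p = 0.00119), and *Xlr3b* 3.75, 1.66 and 3.35 against 73.2, 36.2 and 60.9 (log2 fold change 2.92, standard error 0.31, limma adjusted p = 0.00442). BC XX 2 was the lowest XX line for each of the Xlr3 genes and also for *Xlr5a* (168, 96.5 and 182 in XX lines against 1.25, 0.831 and 1.34 in XY lines, log2 fold change 4.60, standard error 0.30, limma adjusted p = 0.00104). The XY lines hold almost no reads of the smaller family members, with 1 read for *Xlr5b*, 2 for *Xlr4a*, 1 for *Xlr4b* and 1 for *Xlr4c* over all 3 lines if a step is 1 read, while the XX lines together hold 302, 157, 100 and 104. XO lines were as low as XY lines, at 1.59 and 2.85 for *Xlr3a*. In the CB cross *Xlr3a* had 1859, 1289 and 161 in the XX lines against 2.02, 4.91 and 236 in those labelled XY, where CB XY 3 lay above CB XX 3.

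The *Xlr* genes cannot be counted independently, because the copies share sequence. The coding sequences of *Xlr3b* and *Xlr3c* (681 bases, annotation of mm9) differ at 4 bases, and each differs from *Xlr3a* at 12. *Xlr5a* and *Xlr5b* differ at 4 of 711 bases, and *Xlr4b* and *Xlr4c* at 3 of 648. How reads that match several copies were assigned is not given in the sources used here, so the split of reads among copies is uncertain. The copies also share the sequence before their start sites. A stretch upstream of the RefSeq start is shown for the 3 Xlr3 genes because their values moved together (GRCm38.p6, chrX:73265457-73265640 minus strand for *Xlr3c*, chrX:73097098-73097264 minus strand for *Xlr3a* and chrX:73191949-73192132 plus strand for *Xlr3b*). Capitals mark bases that differ from *Xlr3c* in the alignment.
Xlr3c: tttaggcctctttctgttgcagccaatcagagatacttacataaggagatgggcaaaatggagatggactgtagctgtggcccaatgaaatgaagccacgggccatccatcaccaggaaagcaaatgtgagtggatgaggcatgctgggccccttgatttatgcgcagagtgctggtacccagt
Xlr3a: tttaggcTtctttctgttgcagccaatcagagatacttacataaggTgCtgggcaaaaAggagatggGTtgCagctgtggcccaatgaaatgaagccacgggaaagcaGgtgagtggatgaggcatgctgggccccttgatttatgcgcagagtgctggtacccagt
Xlr3b: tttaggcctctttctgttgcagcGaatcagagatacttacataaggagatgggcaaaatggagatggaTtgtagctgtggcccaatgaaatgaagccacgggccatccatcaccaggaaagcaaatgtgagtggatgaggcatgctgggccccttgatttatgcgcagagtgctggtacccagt
*Xlr3b* differs from *Xlr3c* by 2 substitutions over 184 bases (98.9% of aligned bases the same), and *Xlr3a* by 8 substitutions and 17 gap bases (86.4% the same).

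Other X-linked genes with large differences fell into genes whose XX lines followed the order of the fibroblast level and genes whose XX lines did not. *Usp26*, a deubiquitinase gene known from testis, had 125, 633 and 345 in XY and 2796, 3448 and 1668 in XX lines (log2 fold change 3.04, standard error 0.52, limma adjusted p = 0.0193), with BC XX 3 lowest. *Efhc2*, which codes for an axonemal protein, had 23.7, 26.6 and 21.4 against 168, 143 and 208 (log2 fold change 2.61, standard error 0.26, limma adjusted p = 0.00388). *Nxf3*, an RNA export factor gene, had 9.99, 5.82 and 1.34 against 69, 61.5 and 84.5 (log2 fold change 2.91, standard error 0.35, limma adjusted p = 0.00653), and *Xpnpep2*, a peptidase gene, 5, 2.49 and 2.01 against 98.2, 78.6 and 57 (log2 fold change 3.33, standard error 0.30, limma adjusted p = 0.00326). The CB XX lines had 3569, 4509.6 and 3182 for *Usp26* and 287, 134 and 275 for *Efhc2*. *Xpnpep2* was higher in the lines labelled CB XY (46.5, 73.7 and 45.4) than in the BC XY lines. The matrix proteoglycan gene *Bgn* (1699, 1311 and 1286 against 4561, 7747 and 12131, log2 fold change 2.40, standard error 0.32, limma adjusted p = 0.00909), *Srpx2* (38.7, 16.6 and 10.7 against 111, 258 and 399, log2 fold change 3.23, standard error 0.52, limma adjusted p = 0.0155) and the tenocyte gene *Tnmd* (2.5, 0.831 and 0 against 38.7, 72.5 and 129.7) were lowest in XX 1 and highest in XX 3, in the order of the fibroblast level. *Tnmd* was at 1.42, 3.65 and 2.67 in the CB XX lines. *Nxf3*, *Xpnpep2* and *Tnmd* were below 10 in every BC XY line, so their direction was fixed by the filter. In the BC XY lines these genes all ran in the order of the fibroblast level. Of the Rhox family, X-linked homeobox genes of the reproductive tract, 3 were tested and *Rhox1* was higher, at 3.75, 13.3 and 10.7 in XY and 63.7, 59 and 30.5 in XX lines (log2 fold change 1.98, standard error 0.38, limma adjusted p = 0.0282). *Rhox6* and *Rhox9* overlapped between the groups.

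The autosomal calls were tilted to higher values in XX lines, 444 against 85. They were spread over all autosomes, with 10 (chromosome 12) to 45 (chromosome 1) genes higher per chromosome and 1 to 12 lower. The median log2 fold change of an autosome ranged from −0.20 (chromosome 17) to 0.07 (chromosome 18). For 324 of the 444 autosomal genes that were higher in XX lines (73.0%), values followed the order XX 1, 2, 3, which is that of the fibroblast level, against 30.6% of all autosomal genes tested. Among the 98 X-linked genes higher in XX lines this order was found for 29 (29.6%), against 26.3% of X-linked genes tested. In the XY lines, values of 176 of the 444 autosomal genes (39.6%) followed the order 3, 2, 1 of the fibroblast level, against 27.7% of all autosomal genes tested. The order within a group was not used to call genes.

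The CB lines come from other embryos, of the reciprocal cross. In a limma model of 12 lines, whose estimate of the spread includes that of the BC lines, CB XX lines differed from the CB lines labelled XY with 280 genes higher (1.82%) and 167 lower (1.08%). There 57 of the 98 X-linked genes higher in BC XX lines were also called higher, against 182 of 571 X-linked genes (31.9%), and 30 of the 444 autosomal genes were, against 98 of 14829 (0.661%). Of the 85 autosomal genes lower in BC XX lines 15 were also called lower, against 1.12%. In a fit of the 6 CB lines alone, chosen after seeing the data, 106 genes were higher (0.687%) and 46 lower (0.298%). It called 19 of the 98 X-linked genes, against 83 of 571 (14.5%), 7 of the 444 autosomal genes, against 23 (0.155%), and 1 of the 85 lower genes, against 46 (0.31%). These 7 were *Hormad1*, *Aurkc*, *Pramel6*, *Lpar1*, *Dnajc5g*, *Gm13128* and *1700019A02Rik*, with limma adjusted p from 0.0364 to 0.0457, and the gene called lower was *Phlda2* (0.0364).

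Genes of both orders mostly had the same sign in the CB cross as in the BC cross. Log2 fold changes there were positive for 273 of the 324 autosomal genes in the order XX 1, 2, 3 (84.3%) and for 101 of the 120 in another order (84.2%), against 46.2% of all autosomal genes tested. The median log2 fold changes in the CB cross were 0.38 and 0.64, and in the BC cross 1.96 and 1.43. In the fit of the 6 CB lines alone 29 of the 324 (8.95%) and 58 of the 120 (48.3%) were higher at an unadjusted p of 0.05, against 6.26% of autosomal genes, and the 7 called genes were among the 120. Of the 85 lower genes 80 were negative in the CB cross. Without the CB lines of little Y-linked RNA (XY 2 and 3), 53 genes were higher and 13 lower in the CB cross, and 21 X-linked genes, 9 autosomal higher genes and 2 autosomal lower genes were called in both crosses. A single CB XY line then remains and is assumed to vary like the other groups.

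**Figure D3:**
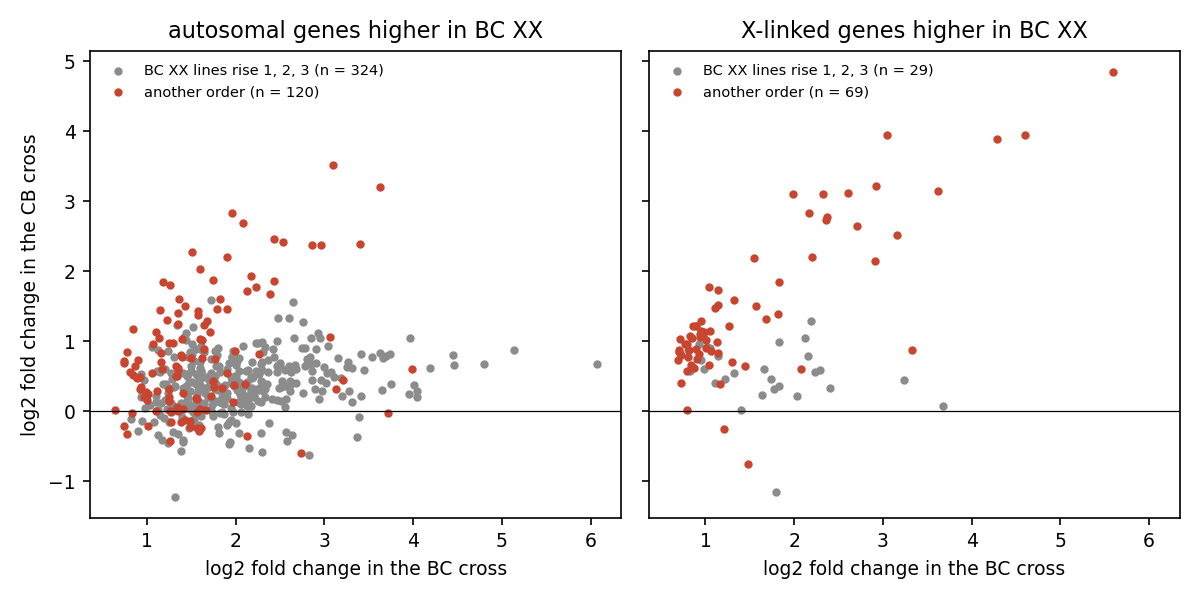
Log2 fold change of XX against XY lines in the BC cross (x axis) and in the CB cross (y axis) for the 444 autosomal (left) and 98 X-linked genes (right) that were higher in BC XX lines, 1 point per gene, grey where the BC XX lines rise in the order 1, 2, 3 and red otherwise. Most grey autosomal genes lie above the zero line in the CB cross (273 of 324, median 0.38), and every autosomal gene above 2 in the CB cross is red.

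The largest autosomal increases were genes of fibroblasts and contractile cells. *Postn*, a matrix protein of fibroblasts, had values of 192, 104 and 85.7 in the XY lines and 3482, 8839.8 and 19281 in the XX lines (log2 fold change 6.07, standard error 0.55, limma adjusted p = 0.00326). *Acta2*, smooth muscle actin, had 4393, 1605 and 545 against 28664, 34305 and 41744 (log2 fold change 4.45, standard error 0.61, limma adjusted p = 0.0102), and the fibrillar collagen gene *Col5a2* 1378, 388 and 135 against 6356, 13162 and 19507 (log2 fold change 4.80, standard error 0.73, limma adjusted p = 0.0134). *Actg2*, *Pappa*, *Col3a1*, *Itga11*, *Ptn*, *Fibin* and *Ankrd1*, the rest of the 10 largest, had log2 fold changes from 3.99 (*Ankrd1*) to 5.13 (*Actg2*). These 10 were ranked among called genes whose lines do not overlap and whose higher group has a mean value of 50 or more. In the CB cross all 10 had positive values, from 0.21 (*Ptn*) to 0.88 (*Actg2*). None of them passed the threshold in the fit of the 6 CB lines alone (limma adjusted p from 0.503 for *Actg2* to 0.880 for *Ptn*). Of the 30 fibroblast genes all were tested and positive, 20 were called, and the median was 2.14. Smooth muscle genes had 9 of 15 called, a median of 2.29 and examples such as *Myh11* (64.9, 40.7 and 29.5 against 422, 568 and 874, log2 fold change 3.64, standard error 0.36, limma adjusted p = 0.00388). Of 26 Hox genes, the segment identity genes that embryonic fibroblasts keep active and ES cells do not, 12 were higher and 25 positive. Their median was 1.45. Over all genes tested 3.51% were higher and 45.9% positive. Hox genes below 10 in every XY line, such as *Hoxc5* with 4 reads over the XY lines, had their sign fixed by the filter. At a value of 50 or more in 3 lines 4 Hox genes were tested, and 2 were higher. *Hoxb9* had 48.7, 33.3 and 46.9 against 171, 231 and 433 (log2 fold change 2.47, standard error 0.36, limma adjusted p = 0.0122). Without 1 line, the calls ranged from 4 to 24 for the fibroblast list (4 without BC XY 2, 5 without BC XX 2, 10 without BC XX 3), from 5 to 10 for smooth muscle (5 without BC XY 2) and from 1 to 14 for Hox genes (1 without BC XY 2 or BC XX 2, 4 without BC XY 3 or BC XX 3). Of the Hox genes 6 were called with quantile normalization, and their median was 2.08 with a pseudocount of 1 and 0.83 with one of 20. With the fibroblast level as a covariate the medians of the smooth muscle and Hox lists were 1.07 and −0.45. The contribution of remaining feeder cells to these 3 lists was not tested.

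**Figure D4:**
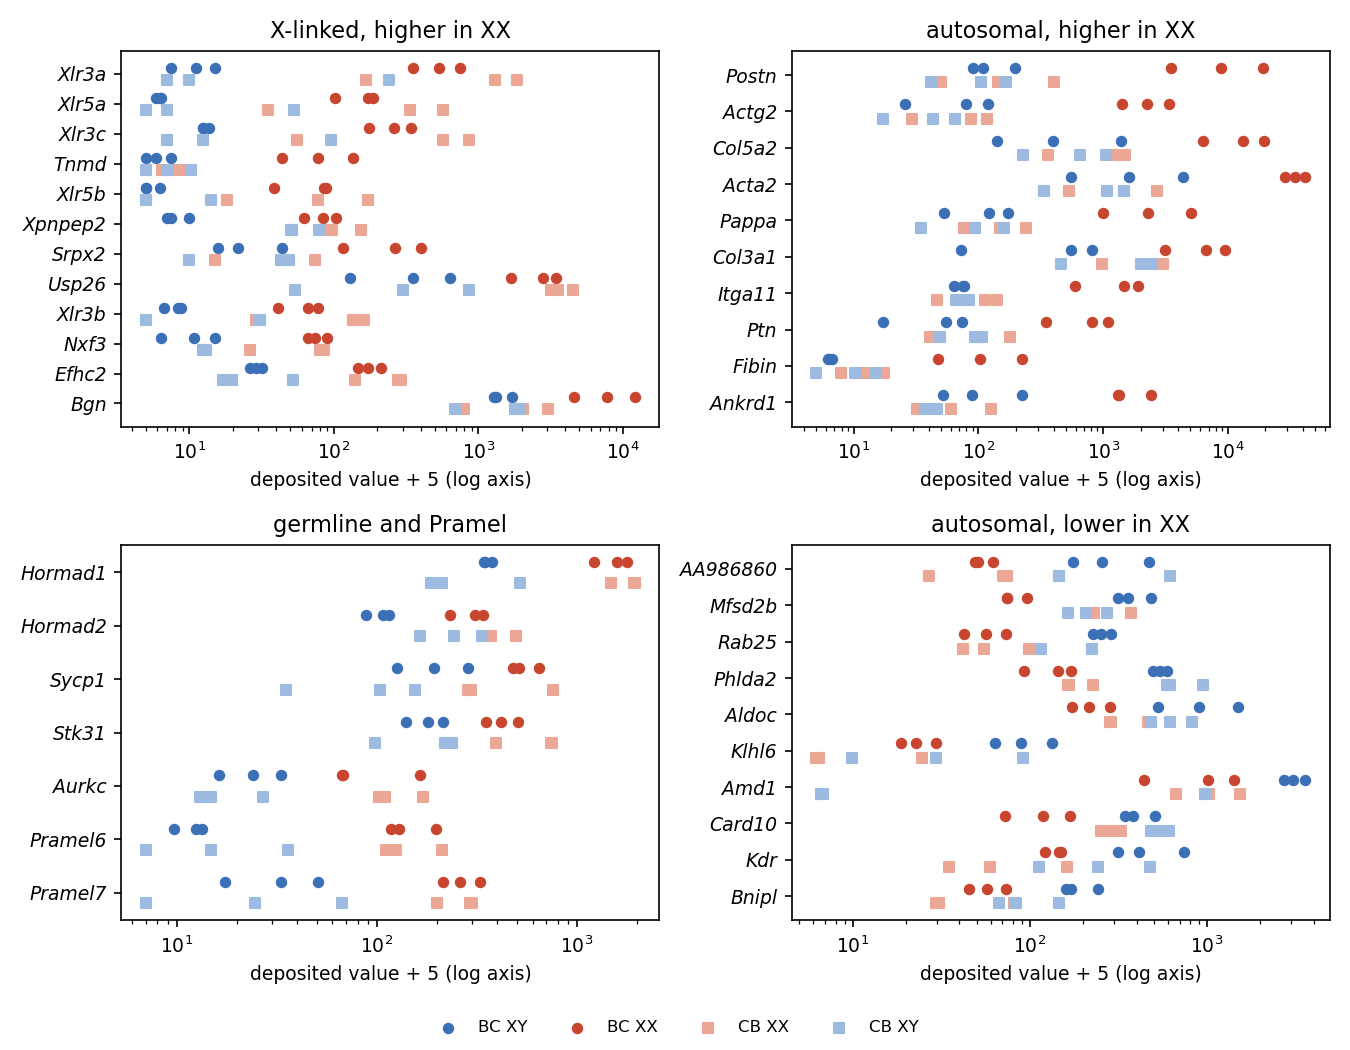
Deposited value + 5 (log axis) in each line for the 12 X-linked and 10 autosomal genes with the largest increase in XX lines, the called germline and Pramel genes, and the 10 autosomal genes with the largest decrease; circles are BC and squares (in lighter colours) CB lines, red XX and blue XY. The X-linked and autosomal genes were chosen among called genes whose BC XX and BC XY lines do not overlap. The germline and Pramel genes shown were chosen because they were called, and their BC lines do not overlap either. For Pramel6, below 10 in every BC XY line, this was fixed by the filter. Over all genes tested the BC lines were apart in either direction for 27.3%. For the leading autosomal genes, such as Postn, the CB XX lines (45.5 to 396) lie far below the BC XX lines (3482 to 19281), and for Pramel6 the XX lines of both crosses lie in the same range.

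Of 29 germline and meiosis genes tested, 5 were higher in XX lines and none lower, with 18 positive and a median of 0.27. Without BC XY 1 the median was −0.08 with 14 positive, without BC XX 1 0.15, without BC XY 3 0.64 and without BC XX 3 0.54, and with the fibroblast level as a covariate it was 2.25 with 28 positive. *Hormad1* (chromosome 3, 95363599 to 95391593 of mm9), a protein of the meiotic chromosome axis, had 371, 338 and 343 in the XY lines and 1569, 1774 and 1215 in the XX lines (log2 fold change 2.08, standard error 0.20, limma adjusted p = 0.00362). Its relative *Hormad2* had 102, 111 and 83 against 335, 305 and 228 (log2 fold change 1.50, standard error 0.25, limma adjusted p = 0.0191). Both were lowest in BC XX 3, the line with the most fibroblast RNA, and the part of the fibroblast level in the germline values was not tested. *Sycp1*, a rod protein of the synaptonemal complex, had 189, 121 and 278 against 643, 471 and 507 (log2 fold change 1.50, standard error 0.31, limma adjusted p = 0.0358). *Stk31*, a kinase gene of testis, had 135, 175 and 209 against 502, 347 and 409.6 (log2 fold change 1.26, standard error 0.25, limma adjusted p = 0.033). *Aurkc*, the meiotic aurora kinase, had 11.2 to 28.1 in XY and 160.1, 63.1 and 61.9 in XX lines (log2 fold change 1.95, standard error 0.43, limma adjusted p = 0.0419), and was the fifth called gene. The counts without 1 line ranged from 1 (without BC XY 2 or BC XX 2) to 7 (without BC XY 3), with 2 without BC XY 1 or BC XX 1 and 3 without BC XX 3, and *Hormad1* kept its call in each of these fits (limma adjusted p from 0.00481 to 0.0340). In CB XX lines, with a fibroblast level of 8.84 to 10.1, *Hormad1* had 1917, 1939.8 and 1477, against 182, 206 and 511 in the lines labelled CB XY. The fibroblast level of the latter was 8.60 to 9.85.

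Germline promoters often carry CACGTG, an E-box that reads the same on both strands and to which factors of germline gene silencing are known to bind. It was searched in the 250 bases before each RefSeq start. Of 27025 genes with a promoter 6.86% hold it, and of the 28 tested germline genes with a promoter 13 do (46.4%), among them 3 of the 5 called. These promoters are shown in GRCm38.p6 (chr3:95559427-95559676 plus strand for *Hormad1*, chr3:102936101-102936350 minus strand for *Sycp1* and chr6:49395289-49395538 plus strand for *Stk31*), with CACGTG in capitals. A match is a description of the letters and not a binding site.
Hormad1: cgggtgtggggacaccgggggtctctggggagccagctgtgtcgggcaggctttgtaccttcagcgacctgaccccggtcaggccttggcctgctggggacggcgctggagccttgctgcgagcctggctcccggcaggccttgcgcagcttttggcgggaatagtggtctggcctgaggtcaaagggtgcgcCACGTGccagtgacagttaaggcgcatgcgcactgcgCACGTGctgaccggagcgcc
Sycp1: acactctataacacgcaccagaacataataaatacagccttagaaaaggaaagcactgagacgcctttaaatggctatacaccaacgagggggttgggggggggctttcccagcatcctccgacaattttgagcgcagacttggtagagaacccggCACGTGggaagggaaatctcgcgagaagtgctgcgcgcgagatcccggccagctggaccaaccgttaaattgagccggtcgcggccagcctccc
Stk31: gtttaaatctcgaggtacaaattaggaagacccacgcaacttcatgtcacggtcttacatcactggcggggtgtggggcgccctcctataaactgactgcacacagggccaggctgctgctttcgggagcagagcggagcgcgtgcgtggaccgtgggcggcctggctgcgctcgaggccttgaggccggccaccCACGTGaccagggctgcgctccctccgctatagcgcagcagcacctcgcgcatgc
*Hormad1* carries the motif more than once in this window, and *Hormad2* and *Aurkc* do not carry it there. A link between the motif and the increase in XX lines was not tested.

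Pramel genes form a family of early embryonic and germline genes. Of 5 tested, 2 were called higher in the XX group, against 3.51% of all genes tested. For *Pramel6*, on chromosome 2 at 87346722 to 87351029 of mm9, values were 7.49, 8.31 and 4.68 in XY and 192, 125 and 113 in XX lines (log2 fold change 3.62, standard error 0.30, limma adjusted p = 0.00224), and *Pramel7* had 12.5, 28.3 and 45.5 against 323, 256 and 209 (log2 fold change 3.09, standard error 0.40, limma adjusted p = 0.00805). BC XX 1, with the lowest fibroblast level of the XX lines, had the highest value of each, and the part of that level was not tested. The XO lines were at 7.98 and 2.13 for *Pramel6*, like the XY lines. *Pramef12* and *Pramef8* lay below the XY lines in all XX lines, with log2 fold changes of −0.50 and −0.56, and were not called. Of the 2-cell genes 3 were tested and none was called; *Zscan4a* had 0, 1.66 and 2.68 against 69.6, 15.5 and 10.8 (log2 fold change 2.19, standard error 0.54, limma adjusted p = 0.0614), with BC XX 1 far above the others. *Nnmt*, which consumes methyl groups by methylating nicotinamide, had 9.99, 9.98 and 9.37 against 182, 109.9 and 173 (log2 fold change 3.40, standard error 0.28, limma adjusted p = 0.00224). *Pramel6*, *Zscan4a* and *Nnmt* were below 10 in every XY line, so each was tested only because all 3 XX lines reached 10. Their direction and lack of overlap were thus fixed by the filter.

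Genes of DNA methylation showed 1 call among 19 tested, with a median of 0.04. *Apobec2*, a member of the cytidine deaminase family, had 166, 145 and 165 in XY and 706, 580.5 and 662 in XX lines (log2 fold change 1.99, standard error 0.20, limma adjusted p = 0.00388), and kept its call without any 1 line. *Dnmt3l* was lower in every XX line, at 8136, 8828 and 10434 against 4204, 7491 and 3861, but was not called (log2 fold change −0.87, standard error 0.25, limma adjusted p = 0.0943). *Dnmt3a* (−0.67, limma adjusted p = 0.142) and *Dnmt3b* (−0.84, limma adjusted p = 0.26) overlapped between the groups. *Dnmt3b* had 16937, 16179 and 6451 in the XY lines, where BC XY 3 was within the range of the XX lines (5027, 9968 and 6195). Among 20 polycomb genes only *Bmi1* was called, with 392, 253 and 229.6 against 716, 743 and 1050.1 (log2 fold change 1.52, standard error 0.26, limma adjusted p = 0.0197), in the order of the fibroblast level. None of 17 histone lysine demethylases was called, and the X-linked *Phf8* had 927, 1147 and 1131 against 1469.9, 1612 and 1711 (log2 fold change 0.58, standard error 0.17, limma adjusted p = 0.096).

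Pluripotency genes were not called in either direction. For the lists that follow, the shares over all genes tested were 45.9% positive, 3.51% called higher and 0.564% called lower. Of 20 naive pluripotency genes 13 were negative, with a median of −0.12 (−0.26 without BC XY 1, −0.03 without BC XY 3) and a range from −0.60 to 0.66, and of 18 formative and primed genes 13 were negative, with a median of −0.21 (−0.39 without BC XY 3). The largest naive value was that of *Prdm14*, a regulator that keeps DNA methylation low, at 335, 371 and 301 in XY and 642, 499 and 469.5 in XX lines (log2 fold change 0.66, standard error 0.21, limma adjusted p = 0.125), without overlap of the lines. *Zic2*, a factor of the primed state, had 1887, 1554 and 1995 against 1212, 1222 and 1152 (log2 fold change −0.59, standard error 0.17, limma adjusted p = 0.0869). For FGF-ERK feedback genes and targets 0 of 20 were called, 15 were negative and the median was −0.14. Without BC XY 1 that median was −0.39, without BC XY 2 −0.08 with 10 negative and without BC XY 3 −0.06 with 11 negative, and with the fibroblast level as a covariate it was 0.33 with 8 negative. *Spry2*, an inhibitor that the pathway induces, had 4355, 3679 and 6478 against 2755, 2587 and 2993 (log2 fold change −0.76, standard error 0.22, limma adjusted p = 0.0896), lower in every XX line. *Dusp9* had 2152, 1937 and 2563 against 5878, 3778 and 2107 (log2 fold change 0.71, standard error 0.33, limma adjusted p = 0.262), high in BC XX 1 and within the XY range in BC XX 3. Wnt targets had 12 of 15 genes negative, a median of −0.50 and 1 call. This was *Axin2*, the feedback inhibitor that is read as a sign of Wnt activity, at 1455, 751 and 1265 in XY and 471, 467 and 459 in XX lines (log2 fold change −1.25, standard error 0.25, limma adjusted p = 0.0343). Of the 6 fits without 1 line, *Axin2* kept its call in the fit without BC XY 2 (limma adjusted p = 0.0445) and had 0.0531 to 0.122 in the other 5. LIF-STAT3 genes had 0 of 11 called and a median of −0.24 (−0.14 without BC XX 1). With the fibroblast level as a covariate the medians of the naive, the formative and primed, the Wnt and the LIF-STAT3 lists were 0.76, −0.50, −0.27 and 0.27.

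Lineage markers gave few calls. Of 12 primitive endoderm genes 8 were positive and 1 was called. *Lama1*, a laminin chain, was lower in XX lines, with 4857, 4705 and 7879 against 2694, 2899 and 2652 (log2 fold change −1.04, standard error 0.21, limma adjusted p = 0.0343), and the regulator *Gata4* had 216, 230.3 and 446 against 85.7, 75.7 and 136 (log2 fold change −1.50, standard error 0.35, limma adjusted p = 0.0506). None of 18 genes of the primitive streak and definitive endoderm and none of 12 trophoblast genes was called. *Eomes*, a factor of both, had 1366, 1473 and 1003 against 683, 576 and 939 (log2 fold change −0.81, standard error 0.24, limma adjusted p = 0.0993), lower in every XX line. Of 12 neural genes 2 were higher, *Meis2* (151, 121 and 122 against 346, 291 and 428, log2 fold change 1.39, standard error 0.24, limma adjusted p = 0.0197) and *Ncam1* (672, 799.7 and 1289.7 against 1997, 2371 and 3578, log2 fold change 1.53, standard error 0.29, limma adjusted p = 0.0276), which are also expressed in mesenchyme. Of the endothelial genes *Kdr*, a VEGF receptor, was lower (736, 310.1 and 408 against 145, 117 and 140.5, log2 fold change −1.72, standard error 0.32, limma adjusted p = 0.026). *Lama1*, *Kdr* and both neural genes lost their calls without BC XY 2, without BC XX 2 and without BC XX 3. *Lama1* also lost it without BC XX 1 (limma adjusted p = 0.0566) and *Kdr* without BC XY 3 (0.0531).

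**Figure D5:**
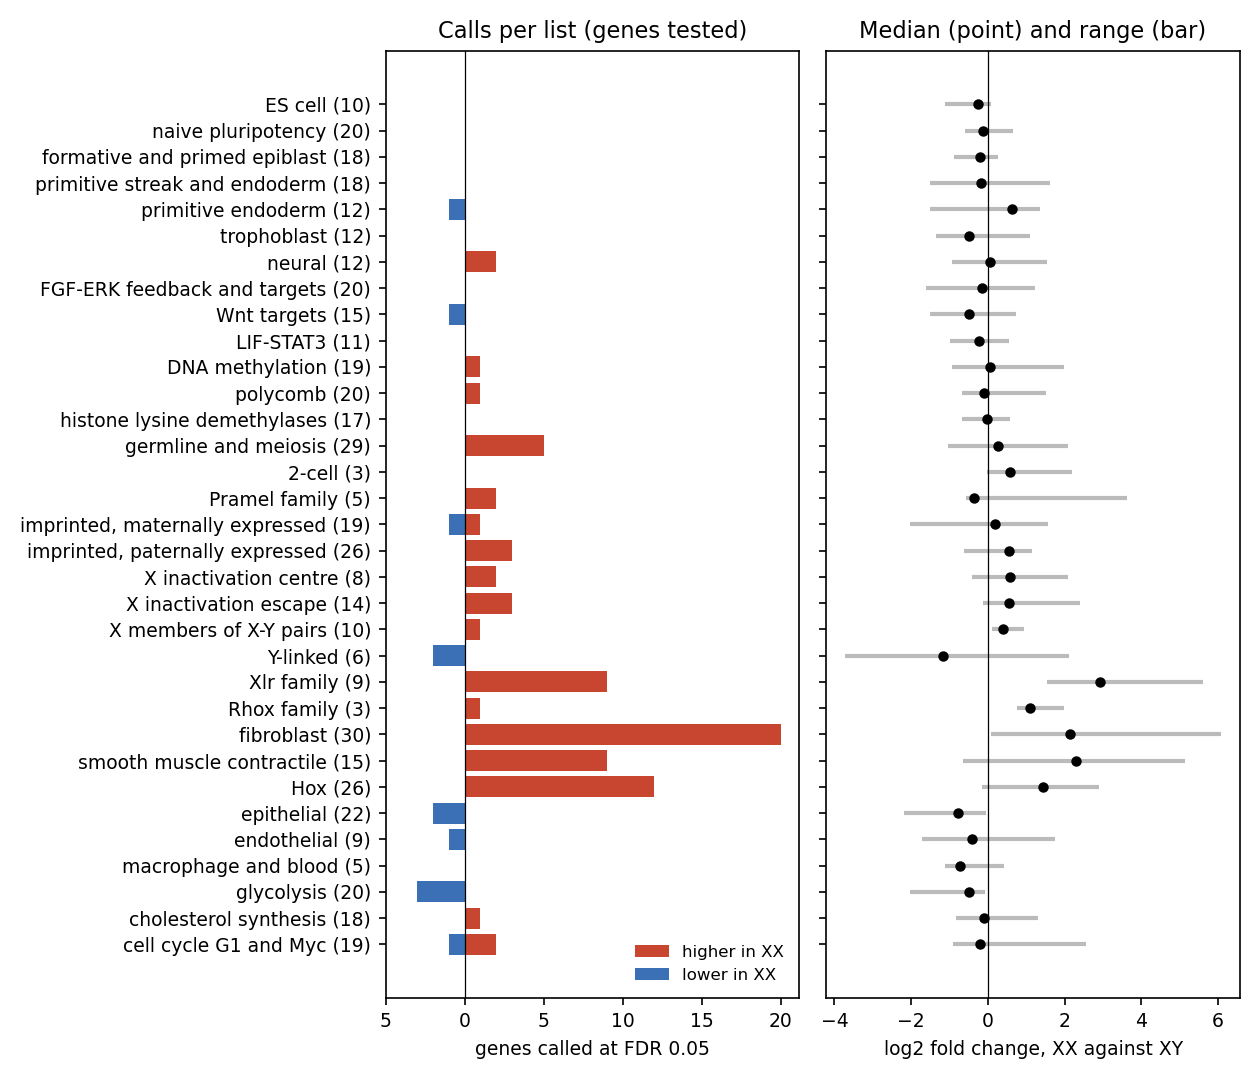
Number of genes called at an FDR of 0.05 (left, lower ones to the left of zero) and median and range of the log2 fold change (right) for 33 gene lists, with the number of genes tested in brackets. The fibroblast, Hox, smooth muscle and Xlr lists hold 20, 12, 9 and 9 calls, and the medians of the epithelial and glycolysis lists are −0.77 and −0.50. The direction of the Xlr genes, and of Hox genes below 10 in every XY line, was fixed by the filter.

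Imprinted genes, which are expressed from only the maternal or only the paternal copy, are of interest because their marks depend on DNA methylation. Of 26 paternally expressed genes 21 were positive, with a median of 0.55, and 3 were higher in XX lines. Over all genes tested 45.9% were positive and 3.51% higher. With the fibroblast level as a covariate, an extrapolation, the median of this list was 0.33 with 19 positive. The part of that level in the imprinted values was not tested. *Zrsr1*, a splicing factor gene, had 704, 758 and 618 in XY and 1289.6, 1145 and 1139 in XX lines (log2 fold change 0.78, standard error 0.17, limma adjusted p = 0.0443). The zinc finger gene *Plagl1* had 561, 581 and 1027 against 1419.9, 1444 and 1774 (log2 fold change 1.14, standard error 0.25, limma adjusted p = 0.045), and *Ndn*, a growth suppressor, 439.6, 329 and 329 against 718, 656 and 663 (log2 fold change 0.90, standard error 0.20, limma adjusted p = 0.0458). All 3 were near the threshold, and without 1 line 0 to 2 genes of this list were called (2 without BC XY 1, 1 without BC XY 3, 0 otherwise). Maternally expressed genes had a median of 0.17 (0.26 without BC XX 1) with 12 of 19 positive. *Osbpl5*, a lipid transfer protein gene, was higher (309.7, 121 and 145 against 503, 564 and 527, log2 fold change 1.56, standard error 0.34, limma adjusted p = 0.0402) and *Phlda2*, a restrictor of placental growth, was lower (535, 488 and 589.7 against 166, 139 and 87.4, log2 fold change −2.04, standard error 0.27, limma adjusted p = 0.00938). *Phlda2* was similar in the CB cross, with 223, 161 and 158 in XX lines against 945, 592 and 614. *Igf2* overlapped between the groups (829, 1077 and 1622 against 1445, 1884 and 2566, log2 fold change 0.75, standard error 0.29, limma adjusted p = 0.185).

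Among the autosomal genes lower in XX lines, several belong to epithelia and to metabolism. All 22 epithelial genes tested had negative log2 fold changes, with a median of −0.77 and a range from −2.18 to −0.04, and 2 were called, *Rab25* and *Tjp3*. *Rab25*, a GTPase of epithelial vesicle traffic, had 224, 282 and 248 in XY and 68.4, 51.7 and 37.3 in XX lines (log2 fold change −2.18, standard error 0.28, limma adjusted p = 0.00805), and *Tjp3*, a tight junction protein, 323, 486 and 660.0 against 210.1, 170.2 and 87.4 (log2 fold change −1.65, standard error 0.37, limma adjusted p = 0.0471). *Cdh1*, the adhesion protein E-cadherin of ES cell colonies, had 10570.0, 18115 and 16766 against 8144, 10376 and 8454 (log2 fold change −0.72, standard error 0.22, limma adjusted p = 0.112), lower in every XX line. *Ap1m2*, *Cgn* and *Tmem79*, further epithelial genes (named after their values were seen), were called lower in the XX lines of both crosses in the model of 12 lines but not in the fit of the 6 CB lines alone (limma adjusted p = 0.0837 for *Ap1m2* and 0.108 for *Tmem79*), with *Ap1m2* at 908, 911 and 843 against 415, 329.7 and 210.2 in BC and 779.5, 830.1 and 539 against 96.7, 60.9 and 375 in CB lines. The epithelial mean log2 level was 8.48 to 9.18 in XX and 9.36 to 9.95 in XY lines. It moves against the fibroblast level, and with the latter as a covariate the median was 0.68. The part of the fibroblast level in this difference was not tested. Without BC XY 1 there were 6 epithelial genes lower, without BC XX 1 5, without BC XX 2 or BC XX 3 1, and without BC XY 2 0.

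All 20 glycolysis genes were negative as well, with a median of −0.50, and 3 were called. Without BC XX 3 the median was −0.28 with 2 genes positive, and without any other 1 line it lay between −0.66 and −0.49. *Aldoc*, an aldolase, had 525, 899 and 1493 in XY and 277, 210.5 and 168 in XX lines (log2 fold change −2.03, standard error 0.37, limma adjusted p = 0.0229). *Pdk1*, the kinase that keeps pyruvate out of the citric acid cycle, had 6738, 7872 and 6659 against 3485, 4092 and 3647 (log2 fold change −0.92, standard error 0.15, limma adjusted p = 0.0164), and *Ldhb*, a lactate dehydrogenase subunit, 6952, 6456 and 11394 against 2890.3, 3541 and 2518 (log2 fold change −1.44, standard error 0.24, limma adjusted p = 0.0178). In the CB cross *Pdk1* had 4871, 3719 and 3757 in XX lines against 5925, 8481 and 6093, and was not called in the 6 CB lines alone. The median of this list too changed sign with the fibroblast level as a covariate, to 0.48, in a fit where that level does not overlap between the groups. None of the 3 was called without BC XY 2, BC XX 2 or BC XX 3. Cholesterol synthesis genes had 1 call of 18, the X-linked *Nsdhl* (722, 1129.7 and 541 against 1966, 1787 and 1912, log2 fold change 1.30, standard error 0.26, limma adjusted p = 0.031), and a median of −0.11 (0.02 without BC XX 3). Of 19 genes of the G1 phase, *Cdk2* was lower (3987, 4093 and 5254 against 2249, 2512 and 2436, log2 fold change −0.88, standard error 0.16, limma adjusted p = 0.0252) and *Ccnd2* and *Cdkn2b* were higher, *Ccnd2* at 1889.7, 1486 and 718 against 3894, 7305 and 14759, in the order of the fibroblast level.

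The largest autosomal decreases, ranked by the same rule as the increases, also included genes outside the lists. *AA986860* had 169.9, 249 and 463 in XY and 57.1, 44 and 46.2 in XX lines (log2 fold change −2.35, standard error 0.36, limma adjusted p = 0.0143), and *Mfsd2b*, a transporter of sphingosine-1-phosphate in blood cells, 353, 478 and 311 against 91, 68.8 and 69.7 (log2 fold change −2.23, standard error 0.26, limma adjusted p = 0.00554). For *Mfsd2b* the CB XX lines (226, 225 and 365) were not below the CB lines labelled XY (269, 201 and 159.7). *Klhl6*, *Card10* and *Bnipl* had log2 fold changes of −1.97, −1.84 and −1.71. *Amd1*, a gene of polyamine synthesis, had 3585, 3050.5 and 2715 against 1011, 1424 and 434 (log2 fold change −1.85, standard error 0.38, limma adjusted p = 0.0345), but its coding sequence differs from that of the neighbouring entry *Amd2* at 1 of 1005 bases, and *Amd2* had 8636, 11964 and 12311 against 7623, 9859 and 11862 (log2 fold change −0.17, standard error 0.21, limma adjusted p = 0.683). The split of reads between these copies is uncertain, so the decrease of *Amd1* is as well.

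Whether the XX-XY difference itself differed between the crosses was tested as an interaction over 12 lines. Of 15422 genes, 2 passed an FDR of 0.05 (0.013%) and 1309 an unadjusted p of 0.05. *Cnn2*, a calponin of smooth muscle and fibroblasts, had 3398, 2999 and 2895 in BC XY and 3734, 3949 and 3818 in BC XX lines, and the CB XX lines had 1242, 1467 and 1583 against 3134, 2866 and 3167 in those labelled CB XY. *Cnn2* was called lower in the CB cross (limma adjusted p = 0.00468, and 0.0364 in the 6 CB lines alone) and was not called in the BC cross (limma adjusted p = 0.262). The difference of the 2 log2 fold changes was 1.41 (standard error 0.19, limma adjusted p = 0.0383). The other gene was the pseudogene *Atp6v0c-ps2*, which was near 0 in the lines labelled CB XY and present in all other lines. Without both CB lines of little Y-linked RNA the count was 2, with the single CB XY line left assumed to vary like the other groups. It was 0 without BC XY 2, BC XY 3, BC XX 2 or BC XX 3 and 18 without BC XX 1. For *Hormad1* (limma adjusted p = 0.760), *Pramel6* (0.913) and *Xlr3a* (0.940) the difference between the crosses missed the threshold, and for the leading fibroblast gene *Postn* the value was 0.121, with a log2 fold change of 6.07 for BC lines and of 0.67 for CB lines.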

How the data were processed

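Total RNA depleted of ribosomal RNA was sequenced as stranded, single-end libraries. Per the labels and the study's methods, reads were aligned to mm9 with TopHat2 and quantified per gene with Cufflinks and Cuffdiff, whose versions are not given in the sources used here. The deposited table holds 1 signal per gene and line, which the authors had brought to a common depth, in which nearly all values are whole multiples of a step. These are not raw counts, so no count model was used. Libraries were prepared in batches, and the sources used here do not assign lines to them, so batch was not tested. Groups come from the labels, with every column of the table used. CB XX lines are numbered by column.

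Genes with a value of 10 or more in at least 3 of the 6 BC lines were tested with limma 3.58.1 (R 4.3.3, moderated variances with a trend) on log2(value + 5), with Benjamini-Hochberg adjustment over 15423 genes and an FDR of 0.05. The 9 genes listed at 0 in all BC XX lines and at 100 or more elsewhere were left out. Differences between the crosses, and the CB values, come from a limma model of 12 lines, which share 1 estimate of the spread. P-values measure the spread between lines. The X to autosome level was compared by an exact permutation test over lines. Fits were tested on simulated data, in which genes varied independently and no fibroblast level differed between lines. How the fits behave with such a level was not tested. Named genes were Y-linked genes and *Xist*, the 4 smallest adjusted p of each list, genes the study discusses, and the largest changes among called genes. The last were 12 X-linked genes and 10 autosomal genes per direction. They were ranked only among called genes whose XX and XY lines do not overlap and whose higher group has a mean value of 50 or more. Further genes, and the order of lines by fibroblast level, were chosen after the values were seen. The members and lists were chosen with earlier results of these data known. The counts of genes called in both crosses without 2 of the CB lines, and with the 6 CB lines fitted alone, were added after seeing the data. Alternatives were other scalings, filters, pseudocounts (1 and 20), array weights, a replicate block, further lines, the fibroblast level as a covariate and leaving out each line. Sequences are from RefSeq (GRCm38.p6), and gene positions are those of mm9.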

Additional observations from a re-analysis of the deposited data

Results flagged for a closer look

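For 2 genes the XX-XY difference itself differed between the crosses by limma. For the pseudogene *Atp6v0c-ps2* the log2 fold change in the BC cross minus that in the CB cross was −7.27 (standard error 0.98, limma adjusted p = 0.0383), from −0.10 in BC and 7.17 in CB lines. Its values were 227, 752 and 2851 in the CB XX lines and 0.153, 1.05 and 0.349 in those labelled CB XY, against 1135 to 4232 in the 6 BC lines. Its low values thus belong to the CB lines labelled XY, and how reads of the pseudogene and its parent gene were divided is not given in the sources used here. For *Cnn2* the difference was 1.41 (standard error 0.19, limma adjusted p = 0.0383), from 0.31 in BC and −1.10 in CB lines. The values in BC XY and CB XY lines were alike (2866 to 3398), while the CB XX lines had 1242, 1467 and 1583.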

How the results depend on the processing

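The X to autosome ratio of XX over XY lines lay between 1.47 and 1.60 under the alternatives run, and the median log2 fold change of X-linked genes was 0.41 without a filter on low values, 0.49 with a pseudocount of 20 and 0.51 to 0.57 without 1 line. Array weights, which give each line its own variance, raised the counts to 2371 genes higher, 1704 lower and 333 X-linked genes higher. With the BC XO lines as a further group 177 genes were lower, and with all 14 lines 209. Without 1 line the counts ranged from 47 to 620 higher, 3 to 173 lower and 16 to 105 X-linked genes higher, and from 0 to 18 genes that differed between the crosses. That last count was 6 with quantile normalization, 12 with all 14 lines and 6 with the fibroblast level as a covariate. With the 9 genes listed at 0 kept, an alternative chosen after seeing the data, 550 genes were higher and 98 lower.

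With the fibroblast level as a covariate 0 genes were higher, 0 lower and 0 X-linked genes higher, in a fit where the covariate does not overlap between the groups. There the log2 fold change changed sign for *Srpx2* (−0.30), *Col5a2* (−0.11), *Col3a1* (−0.58), *Aldoc* (0.14), *Card10* (0.051), *Hoxc8* (−0.14), *Tjp3* (0.68), *Ccnd2* (−0.88) and *Cdkn2b* (−0.16). With a replicate block the counts were 0, 0 and 0 (1872 higher and 1528 lower at an unadjusted p of 0.05 by limma). The sources used here do not say whether lines of the same number belong together. The correlations of deviations of same-numbered lines were −0.17, 0.27 and −0.05, against −0.18 to 0.15 for lines of unlike number. With 3 lines per group these values cannot decide whether lines are paired. The cause of the lost calls was not tested. The block could not be fitted for the difference between crosses. Of the called genes named, 29 of 84 kept the call without any 1 line. Depth limits genes with few reads, such as the Xlr4 genes in XY lines.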

Other observations

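Among the autosomal genes called in both crosses in the model of 12 lines, but not in the fit of the 6 CB lines alone (limma adjusted p = 0.132 for *Syce1* and 0.108 for *Tmem79*), were 2 that are named after their values were seen. *Syce1* is a synaptonemal complex gene outside the lists used and had 78.7, 89.8 and 98.4 in BC XY and 238, 218 and 169 in BC XX lines (log2 fold change 1.17, standard error 0.25, limma adjusted p = 0.0382) and 269, 316 and 118 in CB XX lines against 26.3, 56.5 and 114 in the lines labelled CB XY. *Tmem79*, a membrane protein gene of skin epithelium, had 436, 407 and 362 and 187, 197 and 135 in BC lines (log2 fold change −1.20, standard error 0.24, limma adjusted p = 0.0296), and 149, 140.1 and 144 in CB XX lines against 283, 329 and 221.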
